A study of Mus musculus with 20 samples.

Results

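The transcripts of the other zinc-dependent histone deacetylases and of the corepressor Rcor1 were compared between whole brains of Hdac4KO and WT neonates at postnatal day 3 (P3). The genes were taken by symbol: Hdac1, Hdac2, Hdac3 and Hdac8 (class I), Hdac6 and Hdac10 (class IIb), Hdac11 (class IV), and the corepressors Ncor1 and Rcor1. Of these 9 genes, 8 were matched by symbol, with 14 probe sets among the 45037 probe sets and 18193 genes tested. Ncor1 was not analysed here. The Hdac4KO group held 10 arrays from animals homozygous for a constitutive Hdac4 knock-out and the WT group held 10 arrays from WT animals, with 5 arrays labelled female and 5 labelled male in each. No treatment is stated for any animal. The strain was that of a colony kept by crossing heterozygous males to B6CBAF1/OlaHsd females, with homozygotes made by intercrossing. Which exons of Hdac4 the deletion removes is stated in none of the sources used here. A whole brain mixes many cell types, so fewer cells of a type and less RNA per cell cannot be told apart.

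Histone deacetylases remove acetyl groups from lysine side chains. The class I enzymes carry most of the deacetylase activity of the nucleus and work inside corepressor complexes: HDAC1 and HDAC2 in the CoREST, NuRD, Sin3 and MiDAC complexes, and HDAC3 in the NCoR complex. The class IIa enzymes, to which HDAC4 belongs, have little activity of their own towards acetyl-lysine and bind HDAC3 through NCoR. The other members act elsewhere: HDAC8 deacetylates the cohesin subunit SMC3, HDAC6 deacetylates tubulin in the cytoplasm, HDAC10 deacetylates polyamines, and HDAC11 removes fatty acyl groups. RCOR1 is the scaffold that joins HDAC1 or HDAC2 to the demethylase KDM1A in the CoREST complex. The comparison asks whether the brain lacking HDAC4 carried more or less RNA of these enzymes.

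Promoter windows of 300 bases around the annotated start were available for 6 of the 9 genes from RefSeq (GRCm38.p6). The windows of Hdac2, Rcor1 and Hdac8 are shown because these genes hold the probe sets with the lowest Hdac4KO minus WT estimates below. Each is written 5′ to 3′ on the strand of the gene, with capitals on GC boxes (GGGCGG or its complement CCGCCC), on matches to CTA and TAG joined by NNNN, a loose form of the MEF2 site, and on TATAAA or its complement TTTATA.
Hdac2 (chr10:36974294-36974593, plus strand): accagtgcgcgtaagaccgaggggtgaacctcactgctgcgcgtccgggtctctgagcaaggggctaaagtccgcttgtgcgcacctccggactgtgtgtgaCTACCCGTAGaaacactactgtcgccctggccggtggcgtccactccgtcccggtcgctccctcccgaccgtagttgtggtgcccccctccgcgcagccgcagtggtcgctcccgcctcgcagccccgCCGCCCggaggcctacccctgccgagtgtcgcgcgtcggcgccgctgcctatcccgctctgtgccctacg
Rcor1 (chr12:111039117-111039416, plus strand): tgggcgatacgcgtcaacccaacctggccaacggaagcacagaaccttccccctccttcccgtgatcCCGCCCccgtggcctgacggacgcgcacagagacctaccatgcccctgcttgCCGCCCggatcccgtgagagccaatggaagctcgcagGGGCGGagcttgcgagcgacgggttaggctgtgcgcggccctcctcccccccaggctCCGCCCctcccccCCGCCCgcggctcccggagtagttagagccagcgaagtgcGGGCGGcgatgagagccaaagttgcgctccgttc
Hdac8 (chrX:102505109-102505408, minus strand): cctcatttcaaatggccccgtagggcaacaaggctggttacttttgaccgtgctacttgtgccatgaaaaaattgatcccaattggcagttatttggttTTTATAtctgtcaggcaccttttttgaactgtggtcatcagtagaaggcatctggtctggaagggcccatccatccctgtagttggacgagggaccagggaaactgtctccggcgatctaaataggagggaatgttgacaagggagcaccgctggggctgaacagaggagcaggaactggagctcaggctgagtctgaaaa
The Hdac2 window was 69.67% G and C with 36 CpG dinucleotides, the Rcor1 window 69.33% with 31, and the Hdac8 window 49.67% with 6, against medians of 52.67% and 7 over 32851 windows of the same length. GC boxes, searched on both strands, numbered 6 in Rcor1, 1 in Hdac2 and 0 in Hdac8, and 35.7% of all windows held at least 1. The window of Hdac6 held 5 and that of Hdac11 held 1. MEF2 factors are the DNA-binding partners through which HDAC4 is best known to repress genes. The loose MEF2 form occurred 1 time in Hdac2, with G and C bases in the middle where MEF2 prefers A and T, and in 3.69% of all windows. TATAAA occurred 1 time in Hdac8, on the opposite strand, and in 13.6% of all windows. These matches describe the letters only.

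The deposited values were log2 signals, in which a difference of 1 is a doubling. Array medians ran from 6.26 to 6.32, and a signal above its array's median served as the mark of a probe set that was not dim. All 3 probe sets of Hdac4 were called lower in Hdac4KO. At 1454693_at the signal averaged 6.53 ± 0.36 in Hdac4KO and 7.92 ± 0.16 in WT (SD, n = 10 each), a log2 difference of -1.39 (SE 0.12, limma, adjusted p = 6.28e-07), and no array of one genotype overlapped the other. Hdac4KO replicate 10 was the Hdac4KO array nearest to WT there, at 7.43. Sex-linked transcripts went against the labelled sex in 3 arrays, WT replicates 5 and 9 and Hdac4KO replicate 10, and the last of these carried both Xist (12.27) and Y-linked transcripts (mean 6.95). All 10 neuronal marker genes lay above the array median in every array. Their mean signals were 12.54 to 12.65 in Hdac4KO and 12.59 to 12.65 in WT. Nefl of that list, a neurofilament subunit, was lower in Hdac4KO (log2 difference -0.28, limma, adjusted p = 0.0427). Syt1 of the same list had a difference the other way, 0.14, and was not called (limma, adjusted p = 0.0504). The choroid plexus list, with 5 of 5 genes measured, had mean signals of 7.23 to 8.17 in Hdac4KO and 7.87 to 8.28 in WT, and Ttr of that list was lower in Hdac4KO (log2 difference -0.14, adjusted p = 0.0420). The microglia list, with 7 of 7 genes measured, had 7.25 to 7.57 in Hdac4KO and 7.12 to 7.43 in WT, and Tmem119 was higher (0.26, adjusted p = 0.0179). The 3′ minus 5′ signal of the control transcripts, a measure of RNA integrity and labelling, averaged 0.22 ± 0.03 in Hdac4KO and 0.19 ± 0.03 in WT (SD, n = 10 each). The part of these differences in the values below was not tested, except where a fit with the 3′ minus 5′ signal is given.

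None of the 14 probe sets differed between genotypes once p-values were adjusted over the whole array. With limma and Benjamini-Hochberg adjustment 0 of 14 were called at an adjusted p of 0.05, where 2.06% of all probe sets were. At an unadjusted p of 0.05, 2 of 14 passed, Hdac3 and Hdac10, against 18% of all probe sets. Both were higher in Hdac4KO, against 9.93% of all probe sets in that direction. The methods' t-test with the same adjustment called 1 of 14, Hdac3, and 1002 of all 45037 probe sets. The estimates were small: 6 lay above 0 and 8 below, from -0.16 to 0.10, with a median of -0.01 over the 14 probe sets and 0.00 over all probe sets. The median size of the difference, leaving out its sign, was 0.0349 for the members and 0.0520 for all probe sets. The 95% interval stayed within a 1.2-fold change either way for 13 of 14 probe sets, close to the 84.8% of all probe sets for which it did. No member had arrays of the 2 genotypes that did not overlap, which was seen in 0.0777% of all probe sets.

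**Figure D1:**
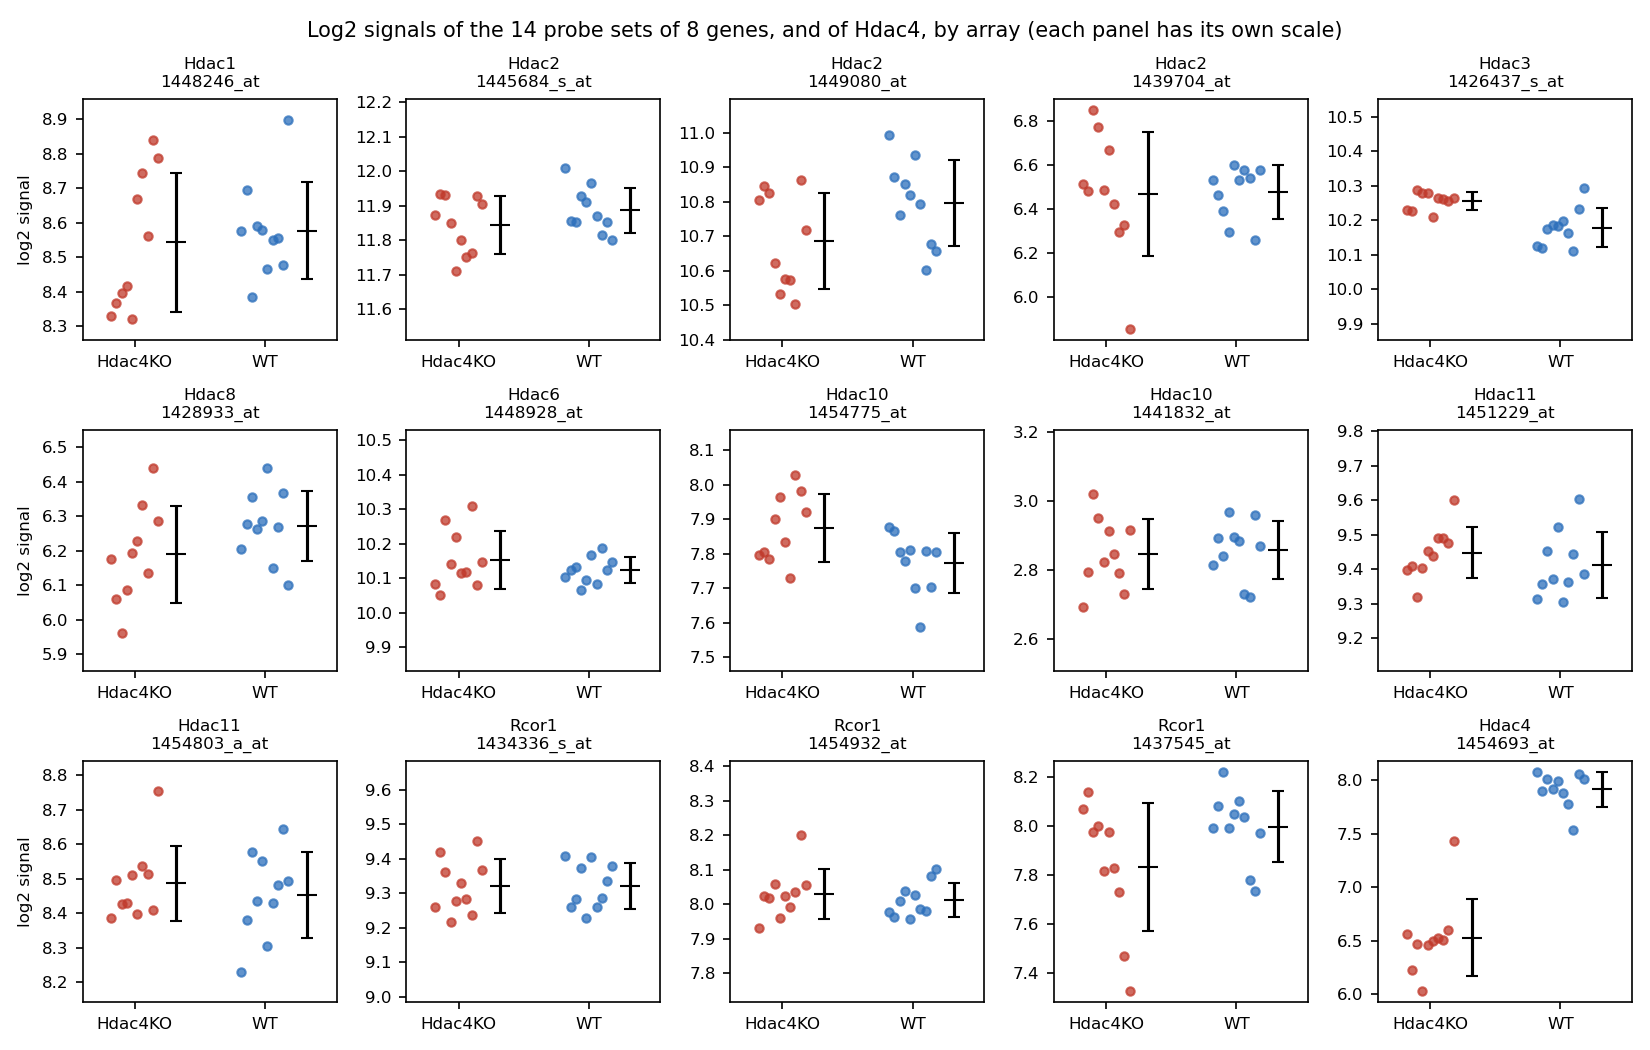
Log2 signal (vertical axis) of every array at the 14 probe sets of the 8 genes and at Hdac4 1454693_at, with Hdac4KO left of WT; points are arrays in replicate order, and each bar spans the mean ± SD of a genotype. The genotypes overlap in every panel except that of Hdac4, and in the Hdac3 panel the Hdac4KO arrays lie between 10.21 and 10.29.

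Among the class I enzymes, Hdac3 stood out by its narrow spread. Hdac3 encodes the catalytic subunit of the NCoR complex, the partner through which class IIa enzymes are linked to deacetylase activity. At its only probe set, 1426437_s_at, the lowest, median and highest signals were 10.21, 10.26 and 10.29 in Hdac4KO and 10.11, 10.18 and 10.29 in WT. Each of the 10 Hdac4KO arrays exceeded the WT mean and 8 of 10 WT arrays lay below every Hdac4KO array, while WT replicate 10 lay above them all. The means were 10.26 ± 0.03 in Hdac4KO and 10.18 ± 0.06 in WT (SD, n = 10 each). The log2 difference of 0.08 (SE 0.03, 95% interval 0.02 to 0.13) is a signal 5.46% higher in Hdac4KO, and it did not pass the adjustment (limma, p = 0.00717, adjusted p = 0.115). It passed with the methods' t-test (adjusted p = 0.0453) and when dim probe sets were left out before adjustment (0.0446), and over all 33 alternatives its adjusted p ran from 0.0446 to 0.334. With the 3′ minus 5′ signal as a covariate the difference was 0.06 (limma, adjusted p = 0.334).

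Hdac1 and Hdac2, the paired catalytic subunits of the CoREST, NuRD, Sin3 and MiDAC complexes, were not called. At its only probe set, 1448246_at, Hdac1 had signals of 8.32, 8.49 and 8.84 (lowest, median and highest) in Hdac4KO and 8.38, 8.57 and 8.90 in WT. The 2 groups covered nearly the same range, with 3 Hdac4KO arrays below all WT arrays and 1 WT array above all Hdac4KO arrays. The log2 difference was -0.03 (SE 0.07, 95% interval -0.19 to 0.12, limma, adjusted p = 0.864).

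Hdac2 was measured by 3 probe sets. At the brightest, 1445684_s_at, the signals were 11.71, 11.86 and 11.94 in Hdac4KO and 11.80, 11.86 and 12.01 in WT, with a difference of -0.04 (SE 0.04, 95% interval -0.12 to 0.03, limma, adjusted p = 0.595). The medians were alike, and 4 Hdac4KO arrays lay below every WT array. At 1449080_at the signals were 10.50, 10.67 and 10.86 in Hdac4KO and 10.60, 10.81 and 10.99 in WT, and again 4 Hdac4KO arrays lay below every WT array and 3 WT arrays above every Hdac4KO array. The difference there was -0.11 (SE 0.06, 95% interval -0.23 to 0.01, limma, p = 0.0685, adjusted p = 0.320). The third probe set, 1439704_at, had 5.85, 6.49 and 6.85 in Hdac4KO and 6.26, 6.53 and 6.60 in WT, a difference of -0.01 (SE 0.09, limma, adjusted p = 0.975). Its spread in Hdac4KO (SD 0.28, against 0.12 in WT) included replicate 10, the lowest array, at 5.85.

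Hdac8, the X-linked gene of the SMC3 deacetylase, was measured by 1 dim probe set, 1428933_at. It exceeded the array median in 6 of 20 arrays. Its signals were 5.96, 6.19 and 6.44 in Hdac4KO and 6.10, 6.27 and 6.44 in WT. The 3 lowest arrays, all under the WT range, were Hdac4KO arrays, and the upper ends coincided. The difference was -0.08 (SE 0.05, 95% interval -0.19 to 0.03, limma, adjusted p = 0.448).

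**Figure D2:**
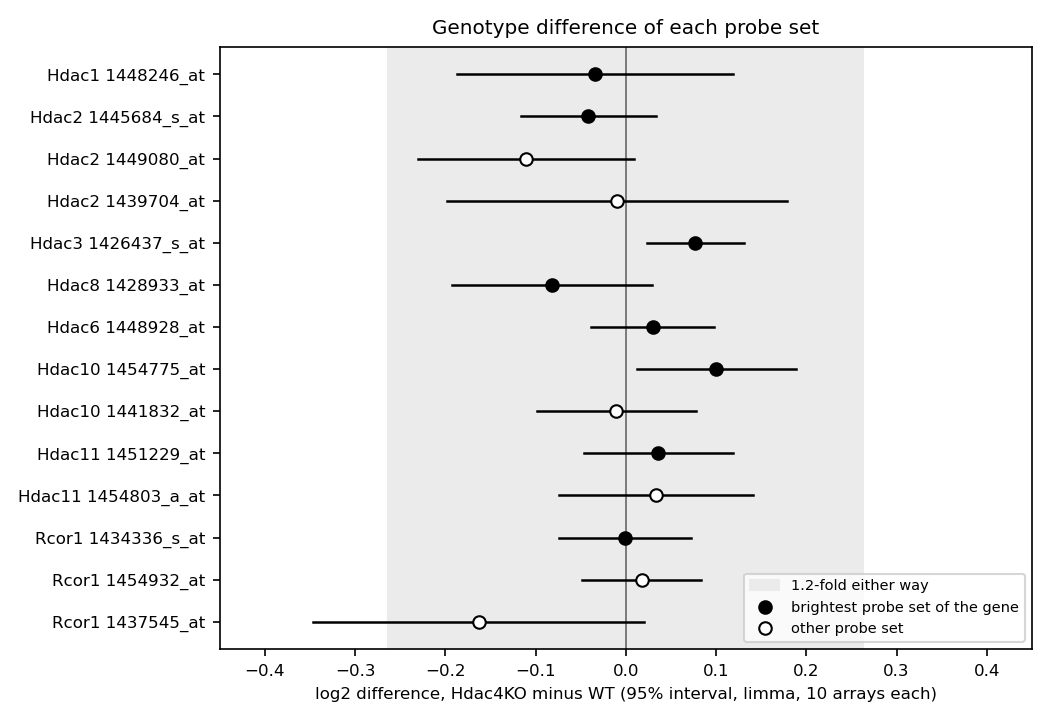
Log2 difference, Hdac4KO minus WT, of each of the 14 probe sets (points, with the 95% interval from limma over 10 arrays each); filled points mark the brightest probe set of a gene and the shaded band a 1.2-fold change either way. The intervals of Hdac3 and of Hdac10 1454775_at lie above 0, and that of Rcor1 1437545_at is the only one to leave the band.

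Of the class IIb genes, Hdac10 had the largest estimate above 0 among all members and Hdac6 showed none beyond its spread. Hdac10 encodes the deacetylase of N8-acetylspermidine. At 1454775_at the signals were 7.73, 7.87 and 8.03 in Hdac4KO and 7.59, 7.80 and 7.88 in WT. In 9 of 10 Hdac4KO arrays the signal exceeded the WT mean, 5 of them lay above every WT array and 3 WT arrays lay below every Hdac4KO array. The log2 difference was 0.10 (SE 0.04, 95% interval 0.01 to 0.19), or 7.20% higher, with p = 0.0278 and adjusted p = 0.212 (limma). Its adjusted p stayed between 0.126 and 0.371 over 33 alternatives. The second probe set, 1441832_at, had signals of 2.69, 2.83 and 3.02 in Hdac4KO and 2.72, 2.88 and 2.97 in WT, was above the array median in 0 arrays and gave a difference of -0.01 (SE 0.04, limma, adjusted p = 0.934).

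Hdac6, the X-linked gene of the cytoplasmic tubulin deacetylase, had at its only probe set, 1448928_at, signals of 10.05, 10.13 and 10.31 in Hdac4KO and 10.07, 10.12 and 10.19 in WT. The Hdac4KO arrays were spread more widely (SD 0.08, against 0.04 in WT), with 3 above and 1 below all WT arrays. The difference was 0.03 (SE 0.03, 95% interval -0.04 to 0.10, limma, adjusted p = 0.691).

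Hdac11, the only class IV gene, was measured by 2 probe sets that gave the same small estimate. At 1451229_at the signals were 9.32, 9.44 and 9.60 in Hdac4KO and 9.30, 9.38 and 9.60 in WT, a difference of 0.04 (SE 0.04, 95% interval -0.05 to 0.12, limma, adjusted p = 0.694). At 1454803_a_at they were 8.39, 8.46 and 8.75 in Hdac4KO and 8.23, 8.46 and 8.64 in WT, a difference of 0.03 (SE 0.05, 95% interval -0.07 to 0.14, limma, adjusted p = 0.795). The ranges of the genotypes overlapped at both, and the highest value at the second was that of Hdac4KO replicate 10.

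Rcor1, the gene of the CoREST scaffold, was measured by 3 probe sets, and none was called. At the brightest, 1434336_s_at, the signals were 9.22, 9.31 and 9.45 in Hdac4KO and 9.23, 9.31 and 9.41 in WT, a difference of 0.00 (SE 0.04, 95% interval -0.07 to 0.07, limma, adjusted p = 0.990). At 1454932_at they were 7.93, 8.02 and 8.20 in Hdac4KO and 7.96, 7.999 and 8.10 in WT, a difference of 0.02 (SE 0.03, 95% interval -0.05 to 0.08, limma, adjusted p = 0.832). At 1437545_at the signals were 7.33, 7.90 and 8.14 in Hdac4KO and 7.74, 8.02 and 8.22 in WT, with 3 Hdac4KO arrays below every WT array. The difference of -0.16 (SE 0.09, 95% interval -0.35 to 0.02) covered a change of -21.4% to 1.42% and was not called (limma, adjusted p = 0.341). Hdac4KO replicate 10 was the lowest array at this probe set, and without it the difference was -0.11 (limma, adjusted p = 0.510). With the 3′ minus 5′ signal as a covariate it was -0.08 (limma, adjusted p = 0.743).

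Where a gene had several probe sets, their genotype differences were compared within each array against the brightest one. Of 6 such pairs, 0 were called and 0 passed an unadjusted p of 0.05 (limma), against 5.05% called among 16752 pairs on the whole array. The largest departures were those of Rcor1 1437545_at, at -0.16 (SE 0.10, adjusted p = 0.366), of Hdac10 1441832_at, at -0.11 (SE 0.06, adjusted p = 0.289), and of Hdac2 1449080_at, at -0.07 (SE 0.04, adjusted p = 0.285). The other 3 lay between -0.00 and 0.03.

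Some probe sets of a gene nonetheless followed each other closely from array to array. Over the 20 arrays, as deviations from the genotype means, Hdac2 1445684_s_at and 1449080_at correlated with Pearson's r = 0.910 (Spearman's rho = 0.923) and the 2 probe sets of Hdac11 with r = 0.854 (rho = 0.830). For Rcor1, 1434336_s_at and 1454932_at had r = 0.567 (rho = 0.432), whereas 1437545_at ran against them, with r = -0.24 (rho = -0.21) and r = -0.50 (rho = -0.37). The third probe set of Hdac2 was unrelated to the brightest (r = -0.00, rho = 0.05), as were the pair of Hdac10 (r = -0.06, rho = -0.15). Hdac1 and Hdac2, whose products share complexes, had r = -0.08 (rho = -0.14) at their brightest probe sets. All these values share the same arrays and their normalization, and they are descriptions.

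**Figure D3:**
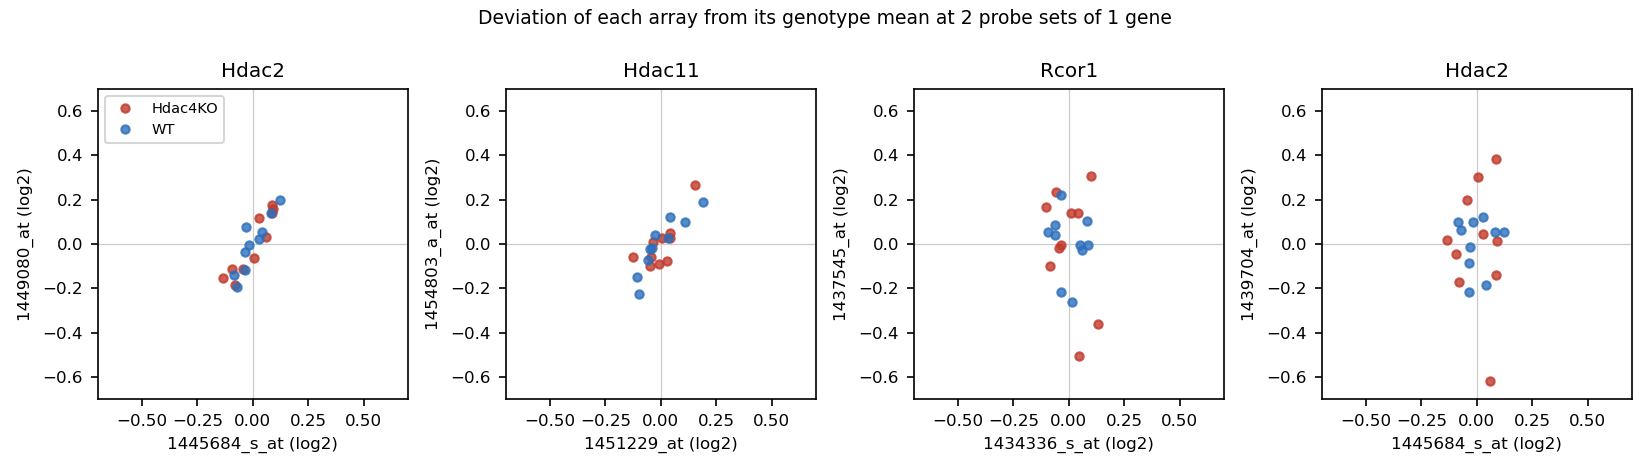
Deviation of each array from its genotype mean (log2) at 2 probe sets of the same gene, with Hdac4KO in red and WT in blue, 20 arrays in each panel. The points lie along a line for Hdac2 1449080_at (r = 0.910) and Hdac11 (r = 0.854) and scatter for Rcor1 1437545_at (r = -0.24) and Hdac2 1439704_at (r = -0.00).

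The genes whose deviations most resembled those of each member were listed by Pearson's r over the same 20 arrays. Members and all other genes were each taken at their brightest probe set only. For Hdac11 they were Gpx3 (r = 0.913), Nfkbib (0.901) and Necap1 (0.878), and for Hdac2 Uba3 (0.883), Tra2a (0.882) and Cbx1 (0.872). Hdac1 had Ubxn7 (0.860), Pink1 (0.823) and Cpa6 (0.821), and Hdac8 had Tmem117 (0.857), Dpcd (0.822) and Lin37 (0.821). The likeness was lower for Hdac6, with Ctsg (0.791), Prrc2b (0.760) and Adgrd1 (0.757), and for Hdac3, with Akt1 (0.787), Adgrg3 (0.787) and Cask (0.775). It was lowest for Rcor1, with Pkd2l1 (0.738), Itga3 (0.736) and Tex10 (0.731), and for Hdac10, with Vmn1r11 (0.730), Rprd1b (0.729) and Prkar1a (0.723). No other member of the set was among these 24 genes. Each was picked as the highest of 18193 genes over only 20 arrays, so its r is high in part by that choice. What unrelated genes would reach was not computed, and the lists are descriptions.

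Hdac6 and Hdac8 are X-linked, so labelled sex was compared as well. Female minus male, 0 of 14 probe sets were called, as were 0% of all probe sets, and 1 of 14 passed an unadjusted p of 0.05, where 3.37% of all did. Xist and the Y-linked transcripts were thus not called either, so with these labels the fit had little power to show a sex difference. Hdac8 differed by 0.06 (SE 0.05) and Hdac6 by -0.03 (SE 0.03) between labelled females and males, each within its spread. The member past the unadjusted threshold was Hdac2 1445684_s_at, at -0.07 (SE 0.03, limma, p = 0.0435), which did not pass after adjustment. Without the 3 arrays that went against their label, 29 probe sets of the whole array were called over 17 arrays, none of them a member, and Hdac8 differed by 0.08 (SE 0.06) and Hdac6 by -0.04 (SE 0.04).

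The genotype difference was also taken within each labelled sex, with 5 arrays per genotype, the 3 arrays against their label included. In females 0 of 14 probe sets were called (limma, 0 at an unadjusted p of 0.05), against 0.04% of all, and in males 0 of 14 (2 unadjusted), against 0.0377% of all. The 2 that passed the unadjusted threshold in males were Hdac3, at 0.10 (SE 0.04, p = 0.0126, adjusted p = 0.268), and Hdac8, at -0.19 (SE 0.07, p = 0.0134, adjusted p = 0.273). In females the Hdac3 difference was 0.05 (SE 0.04) and that of Hdac8 0.02 (SE 0.07). The interaction itself was called for 0 of 14 members and 0% of all probe sets. At an unadjusted p of 0.05 it passed for 1 of 14, where 5.35% of all did: Hdac8, for which the female minus male contrast of the genotype differences was 0.21 (SE 0.10, limma, p = 0.0426, adjusted p = 0.917). Without the 3 arrays against their label it was 0.29 (limma, adjusted p = 0.517).

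**Figure D4:**
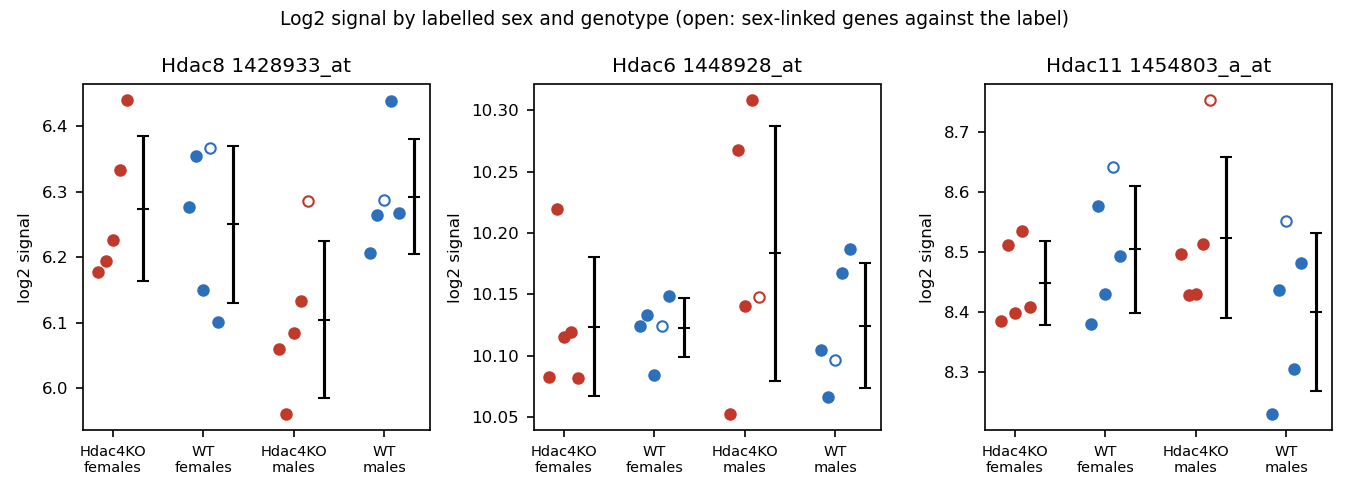
Log2 signal by labelled sex and genotype at Hdac8, Hdac6 and Hdac11 1454803_a_at, with Hdac4KO left of WT, 5 arrays each (points, mean ± SD beside them) and open points for the 3 arrays whose sex-linked transcripts went against the label. For Hdac8 the means were 6.27 in Hdac4KO and 6.25 in WT females, and 6.10 in Hdac4KO and 6.29 in WT males.

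The genes that work with these enzymes were read from lists of 89 symbols, some of them former names of another gene listed. Through these, 77 genes were measured, each at its brightest probe set. None of the 77 was called (limma), where 1.96% of all genes were, while at an unadjusted p of 0.05 there were 20 higher, where 12.8% of all genes were, and 6 lower, where 6.19% were. The median difference was 0.03 for the 77 genes and 0.01 for all genes. Leaving out the sign, it was 0.0492 for the 77 genes and 0.0488 for all genes. The median SE was smaller for the 77 genes, 0.0345 against 0.0474, so a difference of like size passes the unadjusted threshold more often among them. The shares of 12.8% higher and 6.19% lower also stand beside the counts of each list below. The methods' t-test called Chd3, Sin3b, Nmt2, Plcb1 and Ipmk of these genes, and 1002 of all 45037 probe sets.

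In the list around the NCoR complex, the home of HDAC3, 6 genes were measured, with a median of 0.05. They are not all subunits of the complex. At an unadjusted p of 0.05 (limma), 2 of them were higher and 1 lower. Tbl1x and Tbl1xr1, the subunits that exchange corepressors for coactivators, had differences of 0.09 (SE 0.03, adjusted p = 0.156) and 0.07 (SE 0.03, adjusted p = 0.229), and Cops2 had -0.06 (SE 0.03, adjusted p = 0.199). In the list around the CoREST complex, 9 genes had a median of -0.02, with 1 higher and 2 lower. The lowest was Rest, the repressor that recruits CoREST to neuronal genes, with signals of 7.09 ± 0.28 in Hdac4KO and 7.38 ± 0.14 in WT (SD, n = 10 each) and a difference of -0.30 (SE 0.09, adjusted p = 0.0883). Rcor2, the paralogue of Rcor1 of neural progenitors, had -0.09 (SE 0.04, adjusted p = 0.274), and the demethylase Kdm1a had 0.06 (SE 0.03, adjusted p = 0.255).

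The NuRD and Sin3 complexes, which hold HDAC1 and HDAC2, had 12 measured genes each. The NuRD list had a median of 0.01, with 4 genes higher and 0 lower at an unadjusted p of 0.05. Those 4 included the remodelling ATPases Chd3, at 0.12 (SE 0.03, adjusted p = 0.0617), Chd5, at 0.09 (adjusted p = 0.105), and Chd4, at 0.09 (adjusted p = 0.135), each above the WT mean in 10 of 10 Hdac4KO arrays. The Sin3 list had a median of 0.07, with 6 higher and 1 lower. The scaffolds Sin3b and Sin3a had 0.10 (SE 0.03, adjusted p = 0.0727) and 0.12 (SE 0.04, adjusted p = 0.121). Of the MiDAC complex, 2 genes were measured, at -0.03 and 0.05, neither past an unadjusted p of 0.05.

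The lists tied to the other enzymes had medians near 0. The cohesin acetylation cycle around HDAC8 had 11 genes with a median of 0.01, 0 higher and 2 lower at an unadjusted p of 0.05 (limma). The 2 were the SMC3 acetyltransferase Esco2, at -0.28 (SE 0.10, adjusted p = 0.143), and the cohesin subunit Rad21, at -0.10 (SE 0.04, adjusted p = 0.181). Esco2 was dim: its highest signals, 5.85 in Hdac4KO and 5.89 in WT, lay under the lowest array median of 6.26. The tubulin, chaperone and aggresome partners of HDAC6 had 9 genes with a median of 0.00 and none past the unadjusted threshold. Polyamine metabolism, the field of HDAC10, had 7 genes with a median of 0.02 and 1 higher, the acetyltransferase Sat1, at 0.09 (SE 0.04, adjusted p = 0.239). The 3 genes around HDAC11 had a median of 0.02 and 1 higher, the myristoyltransferase Nmt2, at 0.08 (SE 0.03, adjusted p = 0.0966).

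Class I complexes bind inositol tetraphosphate, and the 6 measured genes of its supply had a median of 0.11. At an unadjusted p of 0.05 (limma), 5 were higher and 0 lower, against 12.8% and 6.19% of all genes. Phospholipase Plcb1 had 0.12 (SE 0.03, adjusted p = 0.0504), the kinase Ipmk 0.11 (SE 0.03, adjusted p = 0.0598) and Plcg1 0.10 (SE 0.03, adjusted p = 0.0970). With the 3′ minus 5′ signal as a covariate their adjusted p was 0.171, 0.159 and 0.241, in that order (limma). Itpka, a kinase of dendritic spines, had 0.32 (SE 0.13, adjusted p = 0.189).

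**Figure D5:**
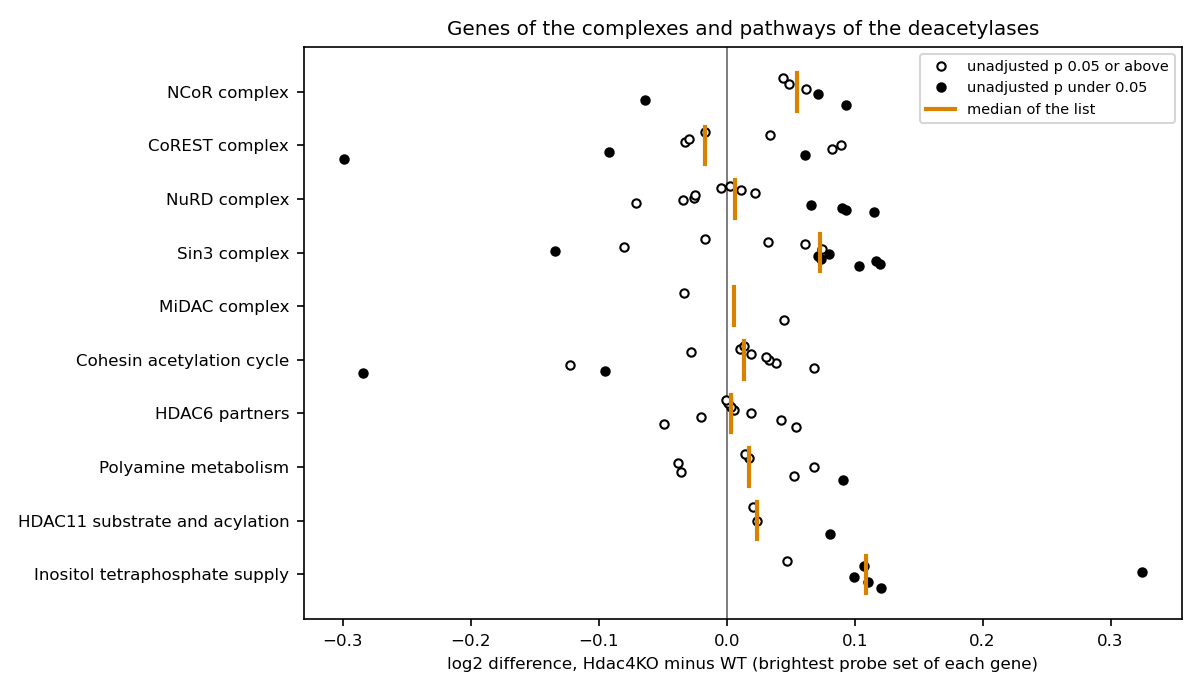
Log2 difference, Hdac4KO minus WT, at the brightest probe set of each of the 77 measured partner genes, by list; filled points passed an unadjusted p of 0.05 and the bar is the median of the list. No gene was called after adjustment over the whole array, and the medians run from -0.02 (CoREST) to 0.11 (inositol tetraphosphate supply).

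Over all 213 probe sets of the partner genes 8 were called, or 3.76%, beside 2.06% of the whole array, and none of the 8 was the brightest of its gene. Higher in Hdac4KO were Sin3b 1455039_a_at (0.15, adjusted p = 0.0301) and 1434637_x_at (0.13, adjusted p = 0.0298), and Tbl1xr1 1455109_at (0.17, adjusted p = 0.00446). Lower were Smc1a 1417832_at (-0.71, adjusted p = 0.0179), Tbl1x 1434644_at (-0.50, adjusted p = 0.0427) and 3 probe sets of Arid4b, between -0.28 and -0.44. Within arrays, each of the 5 lower probe sets differed from the brightest probe set of its gene. The departures were -0.72 for Smc1a (limma, adjusted p = 0.0128), -0.59 for Tbl1x (adjusted p = 0.0220) and -0.26 to -0.42 for Arid4b (adjusted p = 0.0371 to 0.0137). The 3 higher probe sets were not called in this comparison (limma, adjusted p = 0.438 and 0.635 for Sin3b, 0.122 for Tbl1xr1). All 8 were picked by their genotype difference, so the comparison reuses the same values and is a description. Over the whole array, pairs called fell from 846 to 86 with the 3′ minus 5′ signal as a covariate. The lower calls stood at single probe sets, or at some of them, while the brightest probe sets of Smc1a, Tbl1x and Arid4b had differences of 0.01, 0.09 and -0.02.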

How the data were processed

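The authors extracted total RNA of whole P3 brains, labelled it with a 3′ IVT kit and hybridized 1 Affymetrix mouse genome array per animal. Chips were screened by their normalized unscaled standard error. The deposited values are log2 signals, 1 per probe set and array, with like quartiles on all arrays, so some normalization between arrays had been done. Its method is stated in none of the sources used here. Of 45101 probe sets, 64 controls were left out. In the table pairing probe sets with genes, 34945 of the rest carry 1 symbol, 932 several and 9160 none, and only those with 1 symbol were named.

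Genotype (10 arrays each), labelled sex, their interaction and differences between probe sets of a gene were fitted in R 4.3.3 with limma 3.58.1 (lmFit, then eBayes) over the whole array, with no covariate for genotype, and p-values were adjusted by Benjamini-Hochberg over everything tested. The arrays are separate animals by number, but no label gives litters, so p-values measure the spread between these arrays. The number of arrays limits the precision. Every probe set of the members is reported; of each partner list the genes named are among the 4 with the smallest p, and of each member the 3 most similar genes. Probe sets of partner genes that were called without being the brightest were named after their values were seen. The members and lists were chosen with earlier results of these data known. A gene of 1 list is not reported here. Alternatives were the methods' t-test and Welch's test, labelled sex, the 3′ minus 5′ signal, the replicate number as a block, a filter on dim probe sets (22603 kept, those that exceed the median of their array 10 times or more), other normalizations, trend and robust eBayes, array weights, 1 probe set per gene, and arrays left out. Before use, each fit was tested on simulated data that held 200 changed probe sets.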

Additional observations from a re-analysis of the deposited data

Results flagged for a closer look

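In 34 groups of 10 arrays, made of the members' and Hdac4 probe sets in each genotype, 5 had a lone array at one end, with a gap to the next array that was large against the range of the group; chance alone gives this in about 1 in 20 groups. At Hdac11 1454803_a_at, Hdac4KO replicate 10 had a log2 signal of 8.754, against a mean of 8.456 in the other Hdac4KO arrays. At Rcor1 1454932_at, Hdac4KO replicate 9 had 8.201, against 8.012. The same Hdac4KO replicate 10 was the high array at Hdac4 1454693_at, with 7.428 against 6.428, and at Hdac4 1436758_at, with 7.355 against 6.492. At Hdac4 1436758_at, WT replicate 8 was the low WT array, with 7.357 against 7.81 in the others.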

How the results depend on the processing

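All values here are log2 differences or counts of calls, and the cause of a change was not tested. The count of member probe sets called by genotype was 1 in place of 0 after the filter on dim probe sets and with the methods' t-test, Hdac3 each time, and 0 under the other 31 alternatives, and no member was called for labelled sex, for the interaction, within either sex or between probe sets under any alternative run. Partner genes called rose above 0 in 4 lists: with the t-test, dim probe sets left out, and trend and robust eBayes, NuRD had 1, 2 and 1, Sin3 had 1, 1 and 1 and inositol tetraphosphate supply had 2, 3 and 2, and the HDAC11 list had 1 and 1 with the first 2 settings. With the 3′ minus 5′ signal as a covariate, Hdac4 1447566_at was -0.480 and no longer called. Calls over the whole array, 927 of 45037, were 43 with that covariate, 1002 with the methods' t-test and 1385 with trend and robust eBayes. With dim probe sets left out they were 1674 of the 22603 kept. They were 327 without both arrays nearest the other genotype, and 351 to 1715 with 1 array left out. The counts of members and partner genes above stand beside these. Estimates near 0 changed sign. For genotype, Hdac2 1439704_at was 0.0429 with the 3′ minus 5′ signal, 0.0218 with array weights, 0.0662 without the 2 arrays nearest the other genotype and 0.0474 without the 3 arrays against their sex label, and Rcor1 1454932_at was -0.00565 with the 3′ minus 5′ signal. For sex, Rcor1 1454932_at was -0.00227 and 1437545_at -0.0154 without the 3 arrays, and 1437545_at was -0.0264 with the 3′ minus 5′ signal. For the interaction, Hdac1 was -0.000452 and Hdac10 1454775_at -0.0210 with quantile normalization, Hdac10 -6.43e-05 with the 3′ minus 5′ signal, and Hdac2 1439704_at -0.143 and Hdac11 1451229_at 0.0135 without the 3 arrays. With each array left out in turn, the ranges of genotype differences that crossed 0 were -0.0668 to 0.00163 (Hdac1), -0.0521 to 0.0590 (Hdac2 1439704_at), -0.0297 to 0.00667 (Hdac10 1441832_at), -0.0158 to 0.0102 (Rcor1 1434336_s_at) and -0.00157 to 0.0285 (Rcor1 1454932_at). Those of sex were -0.0792 to 0.0384 (Hdac2 1439704_at), -0.00300 to 0.0173 (Hdac3), -0.0116 to 0.0463 (Hdac11 1454803_a_at), -0.0120 to 0.0199 (Rcor1 1454932_at) and -0.0469 to 0.0553 (Rcor1 1437545_at). Those of the interaction were -0.0372 to 0.102 (Hdac1), -0.0130 to 0.0437 (Hdac2 1445684_s_at), -0.0699 to 0.180 (Hdac2 1439704_at), -0.0281 to 0.0484 (Hdac10 1454775_at), -0.0681 to 0.00727 (Hdac11 1451229_at) and -0.156 to 0.0609 (Rcor1 1437545_at). Those between probe sets were -0.00118 to 0.107 (Hdac2 1439704_at) and -0.0165 to 0.00925 (Hdac11 1454803_a_at). Genotypes share replicate numbers, but the numbers do not pair the arrays (1 of 10 pairs correlated above 0.1, and 0 of 10 matched best), and with the replicate block 0 members and 948 probe sets were called. Dim probe sets, such as Hdac10 1441832_at, limit what can be seen.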
